A study of Homo sapiens with 3 samples.

Results

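Neurexins, contactin-associated proteins and IgLON proteins are cell-surface adhesion molecules best known from neurons. The 8 genes described here are NRXN2 and NRXN3 (neurexins), CNTNAP2, CNTNAP4 and CNTNAP5 (contactin-associated proteins), and OPCML, LSAMP and NTM (IgLONs). They were chosen by name, and all 8 were found among the 36601 genes of the matrices. Droplet-based sequencing of single-cell RNA gave UMI counts (unique molecular identifiers, 1 per captured RNA molecule) for stem-cell-derived islets of HUES8 origin (HUES8 is an established line of human embryonic stem cells). There were 3 libraries, 1 per group: cells selected with magnetic beads for CD49a (the CD49a-positive library), cells depleted of CD49a (the CD49a-negative library) and unsorted cells. All 3 were gathered into new aggregates for 7 days before sequencing, and they share the line and the differentiation protocol. No test could be made, since each group is 1 library. Intervals are given at 95%, cover counting error alone, and say nothing of how a second sort would vary.

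Neurexins sit in the membrane of the secreting cell and bind neuroligins, LRRTM proteins and, through secreted cerebellins, other receptors on the facing cell. Inside the cell they bind scaffold proteins such as CASK that stand near the sites of vesicle release. Contactin-associated proteins resemble neurexins and pair with contactins on the same membrane. CNTNAP2 gathers potassium channels along myelinated axons, and CNTNAP4 is known from inhibitory synapses in the mouse. IgLON proteins are held to the membrane by a lipid anchor and bind each other between cells. Islet endocrine cells also release their hormones from vesicles, and they express many genes first described in neurons.

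Barcodes passed with 1000 genes or more and no more than 20% of UMIs from mitochondria, which left 2394, 1976 and 2256 cells of the CD49a-positive, CD49a-negative and unsorted libraries. These were 53.1, 77.0 and 80.3% of the barcodes. Median depths were 48538, 36997 and 42361 UMIs per cell in that order. ITGA1, which encodes CD49a, stood at 108, 33.2 and 66.2 CPM (UMIs per 1000000 summed UMIs) in these libraries. Pairs of libraries shared 2, 1 and 1 kept cell barcodes. Cells were put into 4 classes when they exceeded the cut of exactly 1 of INS (insulin), GCG (glucagon), SST (somatostatin) and TPH1, the rate-limiting enzyme of serotonin synthesis that marks enterochromaffin cells. INS-rich cells numbered 964, 152 and 342 in the positive, negative and unsorted libraries. GCG-rich cells numbered 80, 100 and 114, SST-rich cells 30, 89 and 60, and TPH1-rich cells 79, 322 and 370 in the same order of libraries. Together they made up 2702 of 6626 kept cells (40.8%), while 3695 exceeded several cuts and 229 none. The TPH1 cut was low, at 11.4 CPM, so that a single TPH1 UMI put a cell of median depth above it. Whether cells above several cuts hold free RNA, more than 1 cell or several hormones was not tested. Some markers not used for the cuts followed the classes. FEV stood at 395, 895 and 776 CPM in TPH1-rich cells and at most 117 CPM in the other classes. HHEX stood at 119 to 137 CPM in SST-rich cells and at most 7.07 CPM in the other classes. Other listed markers did not follow them. TRPM2, on the TPH1-rich list, had no UMI in TPH1-rich cells of any library. TTR, on the GCG-rich list, also stood at 13322 to 15319 CPM in INS-rich and 18862 to 23655 CPM in SST-rich cells. Of 10 neuron markers, STMN2 was high in every class (383 to 916 CPM), while SLC17A7 was at or near 0.

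Most of these genes are very long. Their annotated spans ran from 117 kb for NRXN2 and 282 kb for CNTNAP4 through 890 kb for CNTNAP5, 966 kb for NTM, 1118 kb for OPCML, 1337 kb for LSAMP and 1698 kb for NRXN3 to 2305 kb for CNTNAP2. NRXN2 was longer than 79.0% and CNTNAP2 than 99.98% of 12095 genes with at least 5 CPM in the unsorted library. On GRCh38, NTM (plus strand, 131370478 to 132336822) and OPCML (minus strand, 132414977 to 133532519) are neighbours on chromosome 11, with 78.2 kb between their 3′ ends. NRXN2 lies on the same chromosome (minus strand, 64606174 to 64723188). NRXN3 lies on chromosome 14 (plus strand, 78170373 to 79868290), CNTNAP2 on chromosome 7 (plus strand, 146116002 to 148420998), CNTNAP4 on chromosome 16 (plus strand, 76277278 to 76559238), CNTNAP5 on chromosome 2 (plus strand, 124025287 to 124915287) and LSAMP on chromosome 3 (minus strand, 115802363 to 117139389). LSAMP-AS1, on the opposite strand of LSAMP, had 8.01, 6.76 and 8.08 CPM in the positive, negative and unsorted libraries, and what it adds to the count of LSAMP, or takes from it, was not tested.

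Promoter windows are shown for 3 genes described below: NRXN3, highest in GCG-rich cells, and CNTNAP5 and LSAMP, highest in TPH1-rich cells. RefSeq (GRCh38.p14) lists windows for 7 of the 8 genes, 14 windows in all, and has no entry for NRXN2. Each line gives the 250 bases before a start, 5′ to 3′ on the strand of the gene. NRXN3 has 3 listed starts, and the window with a match is shown, chr14:79279130-79279379 on the plus strand. CNTNAP5 is chr2:124025037-124025286 on the plus strand, and LSAMP is chr3:116445488-116445737 on the minus strand, before a start that lies inside the annotated span.
NRXN3: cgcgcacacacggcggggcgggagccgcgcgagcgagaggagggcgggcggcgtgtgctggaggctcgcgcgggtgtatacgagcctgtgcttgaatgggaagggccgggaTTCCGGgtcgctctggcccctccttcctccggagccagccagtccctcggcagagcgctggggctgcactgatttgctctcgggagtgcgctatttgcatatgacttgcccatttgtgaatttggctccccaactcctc
CNTNAP5: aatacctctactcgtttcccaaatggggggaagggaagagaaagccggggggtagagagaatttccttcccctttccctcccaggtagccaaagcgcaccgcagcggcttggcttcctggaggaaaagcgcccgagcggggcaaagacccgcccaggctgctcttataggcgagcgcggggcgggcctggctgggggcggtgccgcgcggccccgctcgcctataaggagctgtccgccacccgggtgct
LSAMP: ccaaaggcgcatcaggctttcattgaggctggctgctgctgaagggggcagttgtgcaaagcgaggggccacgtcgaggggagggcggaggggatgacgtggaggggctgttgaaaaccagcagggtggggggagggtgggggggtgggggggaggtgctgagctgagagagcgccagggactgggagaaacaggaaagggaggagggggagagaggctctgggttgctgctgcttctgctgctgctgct
Capitals mark a match on either strand to any of 3 motifs. CCGGAA is a core bound by ETS factors, the family of FEV. TAATTA is a core bound by homeodomain factors. The last, TATAAA, is the box near the start of some promoters. CCGGAA occurred in 14.5%, TAATTA in 4.35% and TATAAA in 10.7% of 35116 listed promoters. Among the 14 windows, CCGGAA occurred in 2 (this NRXN3 window and CNTNAP2), TAATTA in 0, and TATAAA in 1, a window of NTM. The windows of CNTNAP5 and LSAMP held none of the 3, and all 3 printed windows were 65.2 to 66.4% G or C.

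The first comparison asks how the levels differ between the cell classes. A gene was called when it was at least 2-fold apart, with 1 CPM added to both sides, in the same direction in all 3 libraries. This is a rule of size and not of significance, since 3 libraries allow no exact two-sided p below 0.25. Of 45 gene-by-pair comparisons with enough UMIs, 20 were called over 6 pairs of classes. TPH1-rich cells had the highest level of 6 genes (NRXN2, CNTNAP2, CNTNAP5, OPCML, LSAMP and NTM) in all 3 libraries. In the same libraries GCG-rich cells had the highest level of NRXN3, and SST-rich cells that of CNTNAP4. The share of all genes, or of long genes, that were highest in TPH1-rich cells of every library was not counted. The count of 6 therefore cannot be read as a trait of these genes. For CNTNAP2, LSAMP and NTM the highest class turned with Leiden clusters, as given below for each. The TPH1 clusters there included cluster 3, with medians of 33854 CPM of INS, 10773 CPM of GCG and 142 CPM of TPH1. It held 120 of 203, 291 of 693 and 211 of 660 cells of the TPH1 clusters in the positive, negative and unsorted libraries. CNTNAP2, LSAMP and NTM stood at 306, 763 and 118 CPM in it. In clusters 10 to 13 they stood at 461 to 1642, 1506 to 5134 and 208 to 577 CPM. The part of cluster 3 in these turns was not tested. For NRXN2 in the positive library TPH1- and INS-rich cells did not differ beyond counting error, and INS-rich over TPH1-rich cells went to log2 0.12 with median-of-ratios scaling and 0.31 with every cut halved, against -0.05. The scale itself carried a shift: with 1 CPM added the median of all genes stood at log2 -0.17 for INS-rich over TPH1-rich cells, -0.14 for INS-rich over SST-rich cells and -0.13 for GCG-rich over TPH1-rich cells. Median-of-ratios scaling moved all genes by log2 0.12, 0.07 and 0.12 in INS-rich cells of the positive, negative and unsorted libraries, and by -0.09, -0.11 and -0.09 in SST-rich cells, and it also gave 20 calls.

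**Figure D1:**
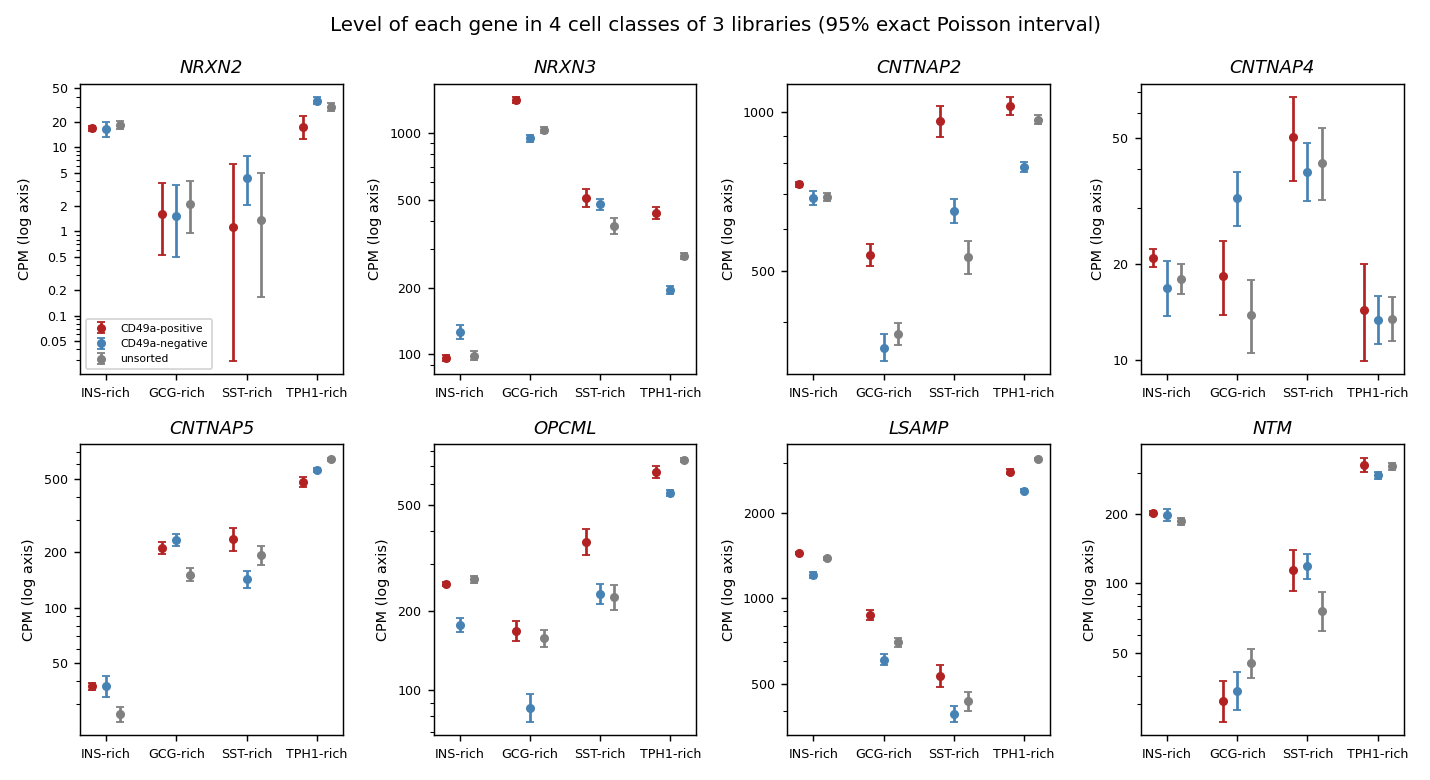
CPM of the 8 genes (log axes, with a scale of its own in each panel) in INS-, GCG-, SST- and TPH1-rich cells. Points are the summed UMIs of 1 library, CD49a-positive, CD49a-negative and unsorted left to right, and bars are exact Poisson intervals of 95%. NRXN3 is highest in GCG-rich cells at 946 to 1412 CPM, and CNTNAP5 in TPH1-rich cells at 480 to 637 CPM.

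The neurexins ran in opposite directions. NRXN3 stood at 96.2, 126 and 98.7 CPM in INS-rich cells of the positive, negative and unsorted libraries. In GCG-rich cells it stood at 1412, 946 and 1033 CPM. The level in INS-rich cells was 14.7-fold (14.1 to 15.3), 7.48-fold (6.90 to 8.12) and 10.5-fold (9.90 to 11.1) lower than in GCG-rich cells. SST-rich cells lay between, at 509, 476 and 381 CPM, and so did TPH1-rich cells, at 434, 195 and 278 CPM. The order GCG, SST, TPH1, INS held in every library, and each neighbouring pair in it differed beyond counting error. SST-rich over TPH1-rich cells, at log2 0.23 in the positive library, went to -0.56 there with every cut halved and to -0.33 with stricter cell filters. With cells of several hormones given to the class they exceeded most it was -0.02 in that library, and with every cell weighted equally it was -0.03 in the unsorted library. With Leiden clusters the distance between INS and GCG was smaller, at 110, 126 and 122 CPM of NRXN3 in INS clusters against 769, 612 and 719 CPM in GCG clusters of the positive, negative and unsorted libraries. With the cuts, the highest level in INS-rich cells (126 CPM) was below the lowest level of every other class (195 CPM or more). How many of all genes did so was not counted.

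NRXN2 was the reverse. It stood at 16.7, 16.5 and 18.4 CPM in INS-rich cells, against 1.61, 1.54 and 2.11 CPM in GCG-rich cells of the positive, negative and unsorted libraries. INS-rich cells were 10.4-fold (4.44 to 32.1), 10.8-fold (4.45 to 33.9) and 8.74-fold (4.55 to 19.3) higher. With Leiden clusters the log2 ratio was 1.32, 1.76 and 1.20, against 2.76, 2.79 and 2.64 with the cuts. The GCG-rich sums rested on 5, 5 and 9 UMIs, which is why the intervals are wide. SST-rich cells were as low, at 1.14, 4.31 and 1.37 CPM from 1, 10 and 2 UMIs. TPH1-rich cells had 17.3, 35.8 and 30.2 CPM, so that NRXN2 was detected mainly in INS- and TPH1-rich cells. After each cell was thinned to 10000 UMIs, 14, 13.3 and 14.9% of INS-rich cells had an NRXN2 UMI (unthinned 43.2, 32.2 and 47.7%). Of thinned GCG-rich cells, 0 of 75 (positive), 0 of 91 (negative) and 1 of 103 (unsorted) had one, and the 0 counts allow shares of up to 4% and 3.3% by 3 counts, or 4.80 and 3.97% by the exact binomial limit. No class is known to lack NRXN2, so no share was at hand for the level that free RNA gives. Median depths before thinning were 37053 to 49302 UMIs in INS-rich cells and 32656 to 39798 UMIs in GCG-rich cells.

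Set against all genes, INS-rich over GCG-rich cells had 2 of the 8 genes higher (NRXN2 and NTM) and 2 lower (NRXN3 and CNTNAP5), while 3.26% of 11566 genes were higher and 2.73% lower by the same rule. INS-rich over SST-rich cells had 2 higher (NRXN2 and LSAMP) and 3 lower (NRXN3, CNTNAP4 and CNTNAP5), against 1.95% and 2.86% of 11486 genes. INS-rich over TPH1-rich cells had 0 higher and 2 lower (CNTNAP5 and OPCML), against 1.62% and 4.10% of 11761 genes. GCG-rich over SST-rich cells had 0 of 7 genes called, against 0.786% higher and 1.43% lower of 9290 genes. GCG-rich over TPH1-rich cells had 1 of 7 higher (NRXN3) and 4 lower (CNTNAP5, OPCML, LSAMP and NTM), against 2.82% and 5.78% of 10524 genes. SST-rich over TPH1-rich cells had 1 of 7 higher (CNTNAP4) and 3 lower (CNTNAP5, LSAMP and NTM), against 1.80% and 3.87% of 8905 genes. NRXN2 was left out of the last 3 pairs: GCG- and SST-rich cells together were under 50 UMIs in every library, and each of them with TPH1-rich cells only in the positive library. Its level in GCG-rich cells was 10.7-, 23.3- and 14.3-fold lower than in TPH1-rich cells of the positive, negative and unsorted libraries. Genes spanning at least 100 kb were called more often than all genes in each pair and direction, except that 1.4% of them and 1.62% of all genes were higher in INS-rich than in TPH1-rich cells. Of these long genes, 13.1% were lower in GCG-rich than in TPH1-rich cells and 10.7% lower in INS-rich than in TPH1-rich cells. The median log2 ratio of the 7 genes tested was -1.72 for GCG-rich over TPH1-rich cells and -1.43 for SST-rich over TPH1-rich cells, against -0.13 and -0.03 over all genes tested.

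The contactin-associated proteins each had a pattern of their own. CNTNAP5 stood at 37.5, 37.5 and 26.4 CPM in INS-rich cells of the positive, negative and unsorted libraries. It stood at 211, 232 and 151 CPM in GCG-rich cells and 235, 143 and 192 CPM in SST-rich cells. TPH1-rich cells had 480, 561 and 637 CPM. INS-rich cells were lowest and TPH1-rich cells highest in every library. By the 2-fold rule 4.10% of 11761 genes, and 10.7% of those spanning at least 100 kb, were lower in INS-rich than in TPH1-rich cells. The level in INS-rich cells was 12.8-fold (11.9 to 13.8), 15.0-fold (13.1 to 17.2) and 24.1-fold (22.0 to 26.5) lower than in TPH1-rich cells. With Leiden clusters CNTNAP5 stood at 35.6, 34.3 and 37.8 CPM in INS clusters against 188, 284 and 341 CPM in TPH1 clusters. GCG- and SST-rich cells did not keep 1 order between them, and in the positive library they did not differ beyond counting error. After thinning, 18.2, 16.3 and 14.9% of INS-rich cells and 60.6, 79.7 and 80.2% of TPH1-rich cells had a CNTNAP5 UMI (unthinned 34.2, 33.6 and 33.3%, and 67.1, 85.1 and 86.8%).

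CNTNAP4 was highest in SST-rich cells, at 50.2, 39.2 and 41.7 CPM from 44, 91 and 61 UMIs. INS-rich cells had 20.9, 16.9 and 18.0 CPM, and were 2.40-fold (1.73 to 3.24), 2.32-fold (1.73 to 3.12) and 2.32-fold (1.73 to 3.06) lower than SST-rich cells. TPH1-rich cells had 14.3, 13.4 and 13.5 CPM, and SST-rich cells were 3.50-fold (2.19 to 5.65), 2.93-fold (2.22 to 3.84) and 3.09-fold (2.26 to 4.18) higher than these. These differences rest on how cells of several hormones are treated: with such cells given to the class they exceeded most, INS-rich over SST-rich cells turned to log2 0.090 in the positive and 0.11 in the unsorted library. With every cut halved, the positive library reversed as well, to 0.67 for INS-rich over SST-rich cells and to -0.30 for SST-rich over TPH1-rich cells. With Leiden clusters CNTNAP4 stood at 21.8, 38.5 and 26.9 CPM in SST clusters, against 21.3, 14.6 and 17.6 CPM in INS clusters. GCG clusters had 20.7, 22.0 and 20.9 CPM, and TPH1 clusters 13.1, 6.87 and 6.35 CPM. The SST level thus barely exceeded the INS and GCG levels in the positive library. Of thinned TPH1-rich cells, 4.23, 5.76 and 3.68% had a CNTNAP4 UMI (unthinned 10.1, 7.14 and 5.14%).

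CNTNAP2 varied least between classes. It stood at 729, 687 and 690 CPM in INS-rich cells and 535, 359 and 380 CPM in GCG-rich cells of the positive, negative and unsorted libraries. SST-rich cells had 958, 649 and 531 CPM and TPH1-rich cells 1025, 787 and 966 CPM. GCG-rich cells were lowest and TPH1-rich cells highest in every library, with a ratio of 1.91, 2.19 and 2.54 between them. This order did not hold with Leiden clusters, where INS clusters had 711, 736 and 708 CPM of CNTNAP2 against 486, 450 and 610 CPM in TPH1 clusters, and the TPH1 clusters were lowest in the positive library. No pair of classes was 2-fold apart in all 3 libraries. In the positive library TPH1- and SST-rich cells did not differ beyond counting error.

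Of the members, the IgLON genes OPCML, LSAMP and NTM shared their highest class under the cuts. LSAMP stood at 1443, 1210 and 1382 CPM in INS-rich cells and 872, 607 and 699 CPM in GCG-rich cells of the positive, negative and unsorted libraries. SST-rich cells had 533, 392 and 433 CPM, and TPH1-rich cells 2802, 2395 and 3105 CPM. The order TPH1, INS, GCG, SST held in every library, and each neighbouring pair in it differed beyond counting error. With Leiden clusters in place of the cuts, LSAMP was instead higher in INS than in TPH1 clusters of the positive library (1513 against 1246 CPM) and the negative library (1561 against 1350 CPM). With cells of several hormones given to the class they exceeded most, LSAMP in GCG-rich over SST-rich cells turned to log2 -0.45 in the positive library. SST-rich cells were 5.26-fold (4.79 to 5.79), 6.11-fold (5.72 to 6.53) and 7.18-fold (6.63 to 7.77) lower than TPH1-rich cells. INS-rich cells were 2.71-fold (2.47 to 2.97), 3.09-fold (2.88 to 3.31) and 3.19-fold (2.95 to 3.46) higher than SST-rich cells.

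NTM differed from LSAMP in which class was lowest. It stood at 202, 197 and 186 CPM in INS-rich cells and 31.2, 34.4 and 45.3 CPM in GCG-rich cells. SST-rich cells had 114, 118 and 75.9 CPM, and TPH1-rich cells 325, 293 and 320 CPM. The order TPH1, INS, SST, GCG held in every library. With Leiden clusters NTM was higher in INS than in TPH1 clusters of the positive library (214 against 191 CPM) and the negative library (241 against 179 CPM). GCG-rich cells were 10.4-fold (8.44 to 13.0), 8.50-fold (7.04 to 10.4) and 7.06-fold (6.11 to 8.20) lower than TPH1-rich cells. INS-rich cells were 6.47-fold (5.29 to 7.98), 5.73-fold (4.71 to 7.02) and 4.10-fold (3.55 to 4.77) higher than GCG-rich cells, so NTM and NRXN3 separated these classes in opposite directions.

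OPCML, the neighbour of NTM, also had its highest level in TPH1-rich and its lowest in GCG-rich cells. It stood at 252, 177 and 262 CPM in INS-rich cells and 167, 86.0 and 157 CPM in GCG-rich cells. SST-rich cells had 363, 232 and 224 CPM, and TPH1-rich cells 665, 554 and 739 CPM. INS-rich cells were 2.64-fold (2.50 to 2.78), 3.13-fold (2.93 to 3.35) and 2.82-fold (2.72 to 2.92) lower than TPH1-rich cells. With Leiden clusters OPCML stood at 262, 215 and 260 CPM in INS clusters against 306, 305 and 453 CPM in TPH1 clusters. These were under 2-fold apart in every library. GCG-rich cells were lowest in every library, and INS- and SST-rich cells changed places between libraries. Over the 12 sums (4 classes in 3 libraries), log2(CPM + 1) of OPCML and NTM had a Pearson r of 0.82, LSAMP and NTM 0.73, and NRXN3 and NTM -0.76. OPCML and LSAMP had 0.70. Some pairs across families came higher, with 0.88 for CNTNAP2 and OPCML, 0.88 for NRXN2 and NTM, and 0.87 for NRXN2 and LSAMP. These points share libraries and cells, and the values are descriptions.

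The genes whose pattern over these 12 sums came closest to each member were found among 12434 genes by Pearson r. NRXN2 was closest to GAP43, AP1B1 and ADRA2A (0.98, 0.98 and 0.97). ADRA2A, the alpha-2A adrenergic receptor, averaged 21.5 CPM in INS-rich, 0.752 in GCG-rich, 0.811 in SST-rich and 33.6 in TPH1-rich cells. NRXN3 was closest to FAM20A, ELL2 and MAGI1 (0.98 each), and MAGI1, a scaffold of cell junctions, averaged 122, 393, 263 and 194 CPM in the same order of classes. CNTNAP2 was closest to RIMS1, CPPED1 and PTBP3 (0.95 each), and RIMS1, a scaffold of the presynaptic active zone, averaged 80.4, 13.1, 59.6 and 99.2 CPM. CNTNAP4 was closest to C11orf54, TXNRD3 and AC087457.1 (0.94 each). CNTNAP5 was closest to ZFHX3, TM4SF4 and XXYLT1 (0.97, 0.97 and 0.96), and TM4SF4, a tetraspanin-like membrane protein, averaged 6.15, 26.7, 35.8 and 79.4 CPM. OPCML was closest to ENPP1, DPYSL2 and SHANK3 (0.97, 0.96 and 0.96), LSAMP to PIP4K2A, ENOX1 and SOAT1 (0.99, 0.98 and 0.98), and NTM to SDK2, SLC8A1 and RGMA (0.99, 0.98 and 0.98). SLC8A1, a sodium-calcium exchanger, averaged 243, 38.6, 115 and 544 CPM. No member was among the 3 closest genes of another member.

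Cells above the cuts of both INS and TPH1 lay between the 2 classes for several genes. There were 373, 191 and 336 such cells in the positive, negative and unsorted libraries, and the part of free RNA or of paired cells in a droplet was not tested. CNTNAP5 had 64.0, 129 and 90.8 CPM in them, above the INS-rich and below the TPH1-rich level of the same library in all 3. LSAMP with 1707, 1725 and 1807 CPM, OPCML with 292, 259 and 309 CPM, and NTM with 259, 254 and 261 CPM lay between the classes in the same way. NRXN2 had 17.8, 22.6 and 18.9 CPM, and in the positive library this was above both classes. CNTNAP2 with 674, 664 and 728 CPM was below both classes in the positive and negative libraries. Cells above the cuts of both INS and GCG (130, 67 and 94 cells) had 380, 373 and 530 CPM of NRXN3 and 89.6, 67.4 and 85.9 CPM of NTM, between INS- and GCG-rich cells for both genes.

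**Figure D2:**
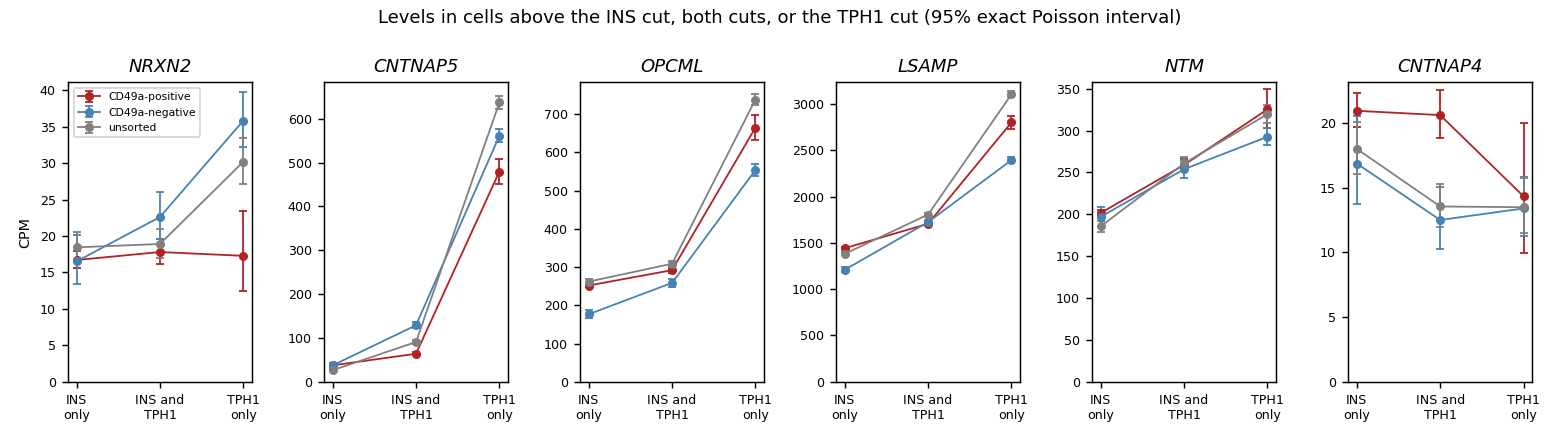
CPM (linear axes from 0) of 6 genes in cells above the cut of INS only, of INS and TPH1, and of TPH1 only. Points are libraries, with exact Poisson intervals of 95%, and lines join the points of 1 library. CNTNAP5, OPCML, LSAMP and NTM climb in all 3 libraries, while CNTNAP4 does not.

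Within TPH1-rich cells the members varied again. Clustering that left the 8 genes out split these cells (79, 322 and 370 cells of the positive, negative and unsorted libraries), and clusters 10, 11, 12 and 13 are set side by side here. Cluster 12 (3, 35 and 41 cells) had the highest LSAMP of the 4, at 6323, 4856 and 5373 CPM, and the highest CNTNAP5, at 2072, 1629 and 1616 CPM. Cluster 11 (8, 25 and 32 cells) had the highest NRXN3, at 2035, 733 and 1323 CPM. Cluster 10 (9, 85 and 67 cells) had the highest NRXN2, at 51.9, 65.4 and 61.3 CPM, and the lowest OPCML, at 263, 322 and 285 CPM. Cluster 10 held 11.4, 26.4 and 18.1% of the TPH1-rich cells of the positive, negative and unsorted libraries.

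A low share of MALAT1, an RNA kept in the nucleus, went with low levels of most members. In the tenth of each library with the lowest MALAT1 share, INS-rich cells (102, 17 and 44 cells) had 183, 158 and 362 CPM of LSAMP, against 1470, 1241 and 1413 CPM in the other INS-rich cells. CNTNAP2 had 61.7, 58.6 and 76.4 CPM in them, against 743, 706 and 709 CPM in the others. NRXN3 had 19.6, 5.86 and 24.2 CPM, against 97.9, 130 and 101 CPM. NRXN2, the shortest of the 8, had 12.7, 23.4 and 18.6 CPM from 13, 4 and 10 UMIs. The others had 16.8, 16.3 and 18.4 CPM of it, with no common direction over the libraries. The low-MALAT1 cells also held far fewer UMIs per cell than the other INS-rich cells in every library. The part of depth or cell quality in these differences was not tested. Across thinned INS-rich cells (835, 135 and 308), LSAMP and CNTNAP2 had a Spearman rho of 0.45, 0.27 and 0.56, and LSAMP and MALAT1 of 0.43, 0.34 and 0.40. All cells of a value share a library, and the part of MALAT1 in the first relation was not tested. Median MALAT1 shares were 1.28, 1.34 and 1.27% in INS-rich cells, 1.75, 1.92 and 1.84% in GCG-rich, 2.32, 2.14 and 1.60% in SST-rich and 2.02, 1.84 and 1.97% in TPH1-rich cells, so they differed between the classes compared above. Without the tenth of cells lowest in MALAT1, the number of called gene-by-pair comparisons was again 20.

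**Figure D3:**
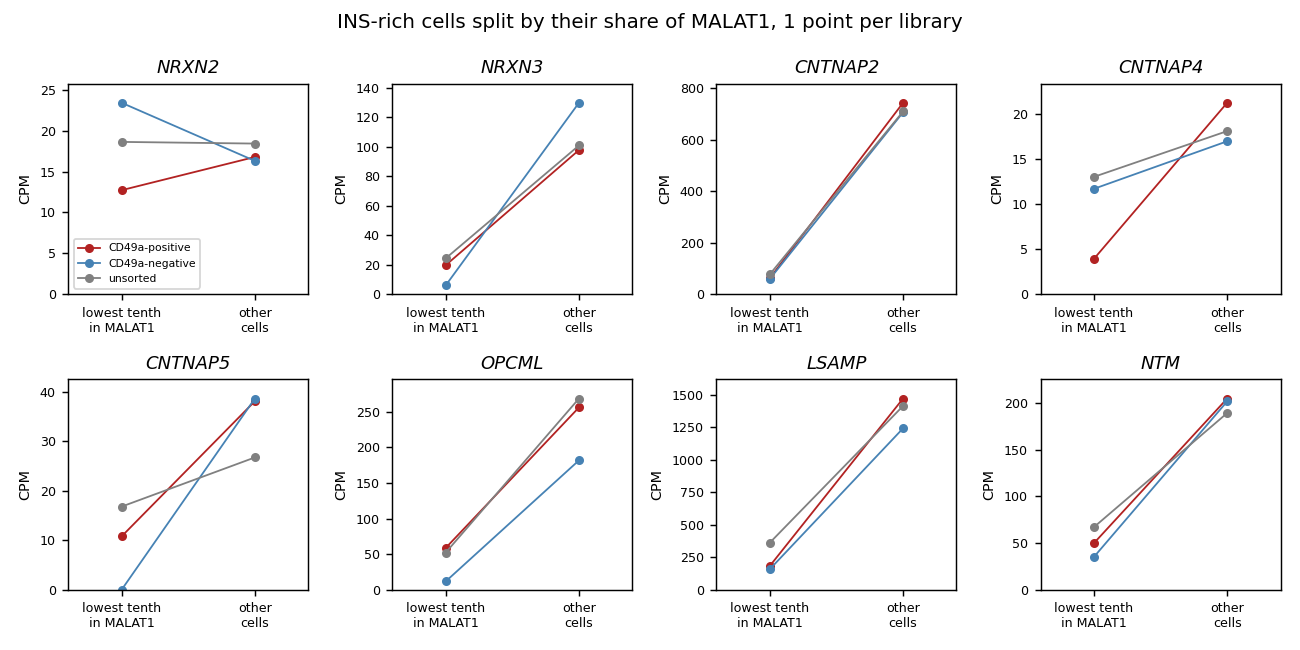
CPM (linear axes from 0) of the 8 genes in INS-rich cells, for the tenth of each library lowest in MALAT1 share and for the other cells. Each line is 1 library. LSAMP is at 158 to 362 CPM in the low-MALAT1 cells and at 1241 to 1470 CPM in the others, while NRXN2 shows no common direction.

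The second comparison asks how the sorted libraries differed over all kept cells. The level of CNTNAP5 was 76.1 CPM (74.6 to 77.7) with CD49a selection, 185 CPM (183 to 188) with CD49a depletion and 167 CPM (165 to 170) with no sort. The positive library was 2.44-fold (2.37 to 2.50) lower than the negative library and 2.20-fold (2.14 to 2.25) lower than the unsorted library. CNTNAP5 was the only 1 of the 8 that passed 2-fold, and it did so in 2 of the 3 pairs of libraries. By the same rule 0.944% of 12178 genes were higher and 1.22% lower for positive over negative, and 0.0331% of 12086 genes were higher and 0.538% lower for positive over unsorted. In the negative over the unsorted library, where 0 of the 8 were called, 0.0572% of 12245 genes were higher and 0.0327% lower. The comparisons share libraries, so they are not independent.

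The other 7 genes differed by less. NRXN3 had 249, 331 and 340 CPM in the positive, negative and unsorted libraries, and the positive library was 1.33-fold (1.31 to 1.35) lower than the negative. LSAMP had 1354, 1038 and 1356 CPM, and CNTNAP2 663, 481 and 602 CPM. Both were lowest in the negative library. NTM with 187, 141 and 173 CPM and OPCML with 252, 208 and 284 CPM were lowest there too, and CNTNAP4 had 20.8, 17.8 and 16.2 CPM. NRXN2 had 14.7, 15.2 and 15.6 CPM, and no pair of libraries differed beyond counting error. A library total cannot tell fewer cells of a class from less RNA per cell, so the cell makeup was set to be equal next.

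With every library given the shares of the unsorted library for the 16 combinations of the 4 cuts, CNTNAP5 stood at 137 CPM (positive) and 162 CPM (negative). The log2 ratio of positive over negative was then -0.24, against -1.27 as measured. For positive over unsorted it was -0.29, against -1.13 as measured. Conversely, the levels of the unsorted library with the makeup of each sorted library gave -1.12 for positive over negative. NRXN3 changed direction: its log2 ratio of positive over negative was -0.41 as measured and 0.46 with equal makeup, from 386 CPM (positive) and 280 CPM (negative). For positive over negative, the other 6 kept the sign they had as measured.

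**Figure D4:**
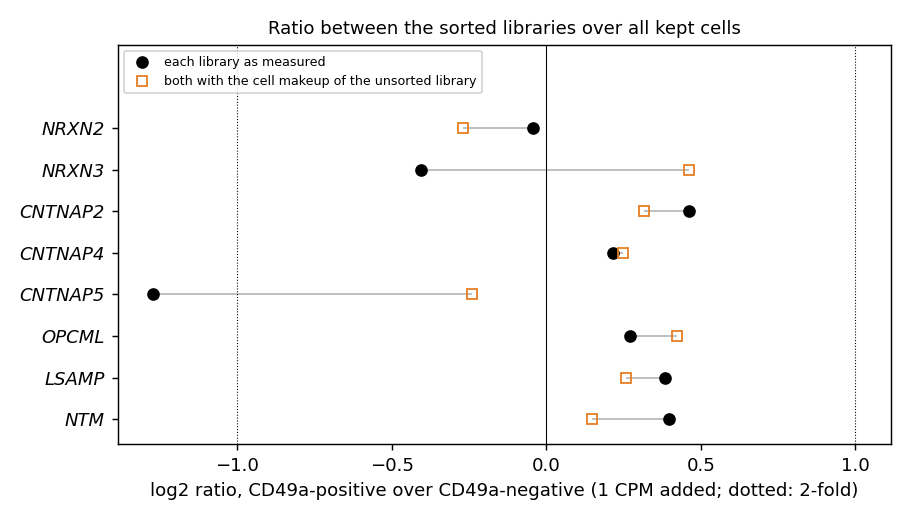
Log2 ratio of the CD49a-positive over the CD49a-negative library (1 CPM added) for the 8 genes over all kept cells. Filled circles are the libraries as measured and open squares both libraries with the cell makeup of the unsorted library. CNTNAP5 lies at -1.27 as measured and at -0.24 with equal makeup, and NRXN3 crosses 0.

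The third comparison asks how the libraries differed within a class. Of 90 gene-by-comparison values with enough UMIs, 3 passed 2-fold. NRXN3 in TPH1-rich cells stood at 434, 195 and 278 CPM in the positive, negative and unsorted libraries, and the positive library was 2.22-fold (2.06 to 2.40) higher than the negative library. NRXN2 in TPH1-rich cells was 2.07-fold (1.5 to 2.94) lower, at 17.3 CPM (positive) against 35.8 CPM (negative). In that comparison 2.27% of 12368 genes were higher and 3.02% lower, and of genes spanning at least 100 kb 6.61% were higher and 0.912% lower. Positive over unsorted TPH1-rich cells had 0 of 8 called, against 1.86% of 12277 genes higher and 0.79% lower, and negative over unsorted 0 of 8, against 0.382% of 12298 genes higher and 0.0813% lower. The positive class holds 79 cells, of which 8 are in cluster 11. Without cluster 11, NRXN3 stood at 275, 154 and 193 CPM in the positive, negative and unsorted libraries, a log2 ratio of 0.83 for positive over negative instead of 1.15, and NRXN2 had -0.96 instead of -1.01. Neither was then past 2-fold. The class was also spread differently over clusters: cluster 1, an INS cluster, held 19.0% of it in the positive and 5.28% in the negative library, beside the shares of cluster 10 above. INS in TPH1-rich cells stood at 4548, 2139 and 2085 CPM in the positive, negative and unsorted libraries, and the part of these in the results was not tested. TPH1-rich cells of the positive library also held 1 cell of very high ghrelin (GHRL), which put the class at 292, 1.48 and 2.21 CPM of GHRL in the positive, negative and unsorted libraries. Without that cell, NRXN3 stood at 415 CPM in the positive library (log2 ratio 1.08) and NRXN2 at 17.7 CPM (log2 ratio -0.98, no longer past 2-fold).

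CNTNAP4 in GCG-rich cells was 2.33-fold (1.68 to 3.26) higher in the negative library, at 32.3 CPM from 105 UMIs, than in the unsorted library, at 13.8 CPM from 59 UMIs. In that comparison 0.485% of 11330 genes were higher and 0.229% lower. In the other pairs of GCG-rich cells 0 of 7 were called, against 0.535% of all genes higher and 0.572% lower for positive over negative, and 0.571% higher and 0.294% lower for positive over unsorted. INS-rich cells had 0 of 8 called in every pair. Of all genes there, 0.151% were higher and 0.0924% lower for positive over negative, 0.0253% and 0.076% for positive over unsorted, and 0.177% and 0.16% for negative over unsorted. SST-rich cells had 0 of 7 called in every pair. Of all genes there, 0.822% were higher and 1.6% lower for positive over negative, 1.25% and 1.44% for positive over unsorted, and 0.733% and 0.609% for negative over unsorted. CNTNAP5, the gene that differed most over all cells, was within 1.5-fold between the positive and the negative library in INS-, GCG- and TPH1-rich cells and 1.65-fold higher in the positive library in SST-rich cells.

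The related genes on 4 lists (5 family relatives, 6 contactins, 17 partners outside and 9 inside the cell) were counted by the same rules. NEGR1, another IgLON gene, was lower in INS-rich than in SST-rich cells, at 159, 154 and 150 CPM against 451, 494 and 426 CPM in the positive, negative and unsorted libraries. Unlike the IgLON members, NEGR1 was not highest in TPH1-rich cells, which had 459, 253 and 313 CPM. GCG-rich cells had 530, 277 and 383 CPM. CNTNAP3 was higher in GCG-rich cells, at 44.4, 26.4 and 33.3 CPM, than in TPH1-rich cells, at 14.8, 10.0 and 11.5 CPM, and its reads can be shared with near-identical copies. Of 3 family relatives with enough UMIs in all libraries, 1 was lower in INS-rich than in GCG-rich cells (CNTNAP3), beside 2.73% of all genes. Likewise 1 was lower in INS-rich than in SST-rich cells (NEGR1), beside 2.86% of all genes. Among genes spanning at least 100 kb these shares were 6.14% and 6.9%.

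Contactins, which pair with the contactin-associated proteins, separated the classes further. CNTN5 stood at 5.46, 18.1 and 8.63 CPM in INS-rich cells, against 358, 302 and 312 CPM in SST-rich cells of the positive, negative and unsorted libraries, 65.6-, 16.7- and 36.1-fold apart. It was also higher in GCG-rich cells, at 154, 94.6 and 117 CPM, than in INS-rich cells. CNTN3 was high in TPH1-rich cells, at 187, 195 and 238 CPM, and lower in INS-rich cells (28.9, 23.0 and 26.3 CPM), GCG-rich cells (21.2, 16.0 and 8.44 CPM) and SST-rich cells (52.5, 31.4 and 25.3 CPM). CNTN4 ran the other way, with 532, 421 and 491 CPM in GCG-rich cells against 215, 131 and 121 CPM in TPH1-rich cells. Of 4 contactins with enough UMIs, INS-rich over TPH1-rich cells had 0 higher and 2 lower (CNTN3 and CNTN5), beside 1.62% of all genes higher and 4.10% lower, and 10.7% lower among genes spanning at least 100 kb. Their median log2 ratio was -1.03. Over all kept cells CNTN5 was 2.08-fold lower in the positive library (31.2 CPM) than in the negative library (64.9 CPM).

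The partners of neurexins differed in the class with their highest level. Of 14 partners outside the cell with enough UMIs, INS-rich over TPH1-rich cells had 0 higher and 5 lower, beside 1.62% of all genes higher and 4.10% lower (1.4% and 10.7% of genes spanning at least 100 kb), with a median log2 ratio of -0.65 against -0.17 over all genes tested. NLGN1, a neuroligin, stood at 64.1, 40.5 and 62.6 CPM in INS-rich cells against 500, 383 and 510 CPM in TPH1-rich cells. CBLN2 was at most 1.30 CPM in INS-rich cells against 14.3, 24.9 and 28.9 CPM in TPH1-rich cells, and CBLN1 at 10.4, 17.7 and 14.1 CPM against 105, 224 and 209 CPM. Both are cerebellins, the secreted bridges of neurexins, and CBLN1 is itself on the list of TPH1-rich markers. LRRTM3 was lower in GCG-rich cells, at 4.82, 7.99 and 2.11 CPM, than in TPH1-rich cells, at 40.0, 35.6 and 38.2 CPM, and INS-rich cells had 60.0, 63.9 and 58.8 CPM. LRRTM4 was higher in GCG-rich cells, at 1019, 672 and 683 CPM, than in TPH1-rich cells, at 419, 139 and 183 CPM.

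Of the partners inside the cell, APBA1, an adaptor of presynaptic vesicle release, was lower in INS-rich cells (34.2, 38.0 and 28.8 CPM) than in TPH1-rich cells (83.0, 77.3 and 84.4 CPM). It was the only 1 of 7 called in that pair, beside 1.62% of all genes higher and 4.10% lower (1.4% and 10.7% of genes spanning at least 100 kb). EPB41L3, a protein that ties contactin-associated proteins to the cytoskeleton, was lower in GCG-rich cells (113, 121 and 112 CPM) and SST-rich cells (121, 124 and 118 CPM) than in TPH1-rich cells (393, 332 and 383 CPM). Over all kept cells CBLN1 was 3.57-fold lower in the positive library (22.5 CPM) than in the negative library (80.4 CPM). Within TPH1-rich cells LRRTM4 was 3.02-fold (2.79 to 3.28) higher for positive over negative, and SYTL2, a vesicle-tethering protein, 4.18-fold (2.65 to 6.58) higher, at 17.3 CPM (positive) against 4.14 CPM (negative). LIN7B, a scaffold partner of CASK, was 2.70-fold lower there, at 20.2 CPM (positive) against 54.6 CPM (negative).

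**Figure D5:**
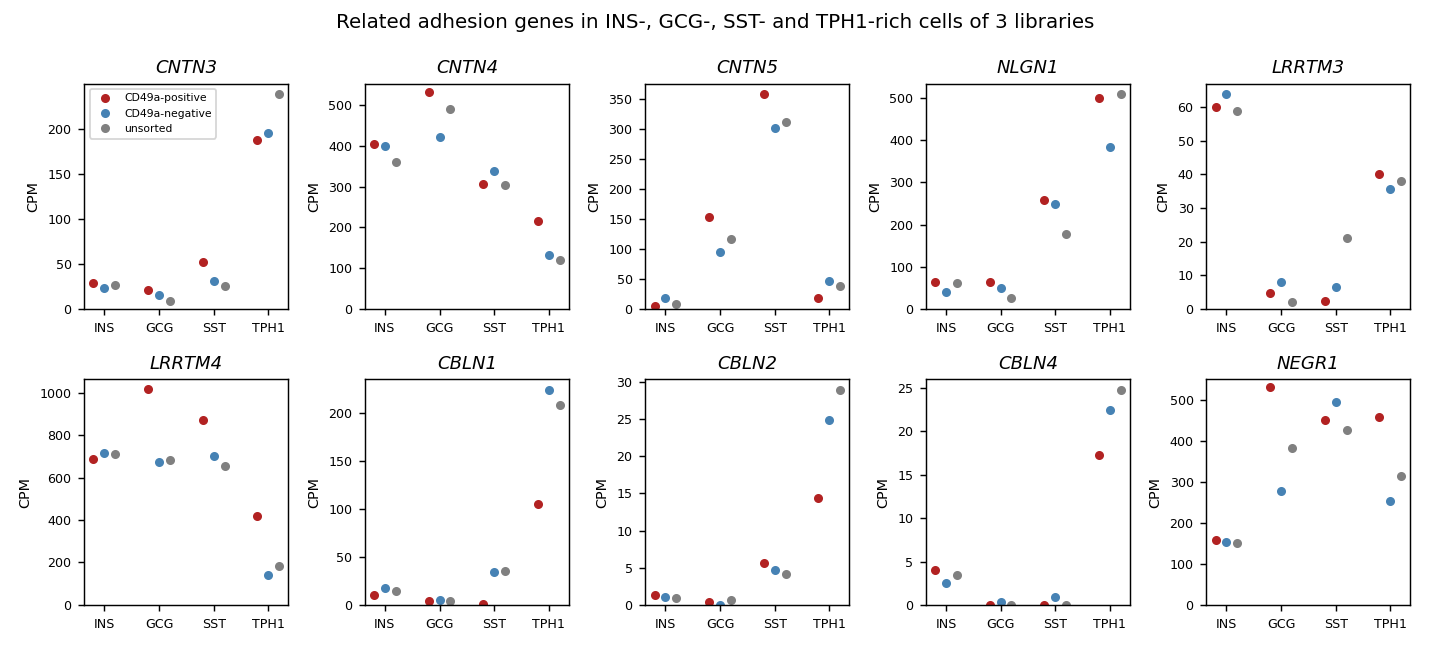
CPM (linear axes from 0) of 10 related genes in INS-, GCG-, SST- and TPH1-rich cells. Each point is 1 library, CD49a-positive, CD49a-negative and unsorted left to right. CNTN5 is highest in SST-rich cells at 302 to 358 CPM, and NLGN1 in TPH1-rich cells at 383 to 510 CPM.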

How the data were processed

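Droplet single-cell RNA sequencing (10x Chromium, per the labels' protocols) gave 3 deposited matrices of UMI counts. The submitters' processing notes name Cell Ranger 7.1.0 and GRCh38. These whole-number counts are not normalized. The libraries held 127119509 (CD49a-positive), 88397368 (CD49a-negative) and 114479071 (unsorted) UMIs. The members, gene lists and comparisons were chosen with earlier results of these data known.

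Kept barcodes had 1000 or more genes and mitochondrial UMIs no higher than 20%. A cut for each of INS (10659 CPM), GCG (1808 CPM), SST (187 CPM) and TPH1 (11.4 CPM) was set by Otsu's method on log10(CPM + 1) over all kept cells. A cell above exactly 1 cut joined that class. Within a factor of 1.25 of the cuts lay 412, 107, 381 and 148 cells. Scrublet called 8 of 6626 cells (0.121%), too few for a working caller, so no doublets were removed.

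UMIs were summed per library and class and scaled to CPM, since cells are not replicates. Sums carry exact Poisson intervals and ratios exact conditional binomial intervals at 95%, for counting error only. Genes needed 50 UMIs over both sums and a mean of 5 CPM. Log2 ratios carry 1 added CPM per side and so understate changes of low genes. Named besides the 8 members were the 3 genes closest to each in pattern and at most 3 related genes per list and comparison past 2-fold, largest first; values of named genes in other classes and the 10 genes plotted were chosen after their values were seen. Spans came from GENCODE release 29, which may not be the release behind the counts. Leiden clustering (resolution 1, 2000 variable genes, 30 components, 20 neighbours, seed 0) left the members out. On simulated data, 100% of 200 genes changed 4-fold were called. Of unchanged genes, 0% over all cells (12144 genes, positive over negative) and 0.0901% in TPH1-rich cells (12409 genes) were called. A 4-fold change lies well past the 2-fold rule, so this says nothing of calls near 2-fold. Nor does it show how a second sort would vary. Python 3.11.15, numpy 2.4.6, scipy 1.17.1, pandas 2.3.3, scanpy 1.11.5, igraph 0.11.9 and matplotlib 3.10.9 were used. Alternatives covered pseudocounts, scaling, cell filters, depth, cuts, clusters and leaving out a library.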

Additional observations from a re-analysis of the deposited data

Results flagged for a closer look

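NRXN3 in the CD49a-positive over the CD49a-negative library moved in opposite directions in 2 classes. It was 2.22-fold in TPH1-rich cells (434 CPM positive, 195 CPM negative) and 0.761-fold in INS-rich cells (96.2 CPM positive, 126 CPM negative). With 1 library per group the difference between the classes was not tested.

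Barcodes of the negative library left out for more than 20% mitochondrial UMIs held more NRXN3 than barcodes left out in this way from the other libraries. Scaled to non-mitochondrial UMIs alone, NRXN3 stood at 474.5 CPM (445.4 to 505.0) in 178 such barcodes of the negative library. It stood at 315.4 CPM (294.2 to 337.9) in 187 of the unsorted library and 315.8 CPM (291.1 to 342.0) in 130 of the positive library. On this scale GCG stood at 7626, 7978 and 5837 CPM in those of the positive, negative and unsorted libraries, and its part was not tested. The kept cells had 273, 359 and 370 CPM of NRXN3 on this scale in the positive, negative and unsorted libraries.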

How the results depend on the processing

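No paired analysis was possible because each group has 1 library; classes were compared within each library. The 2 calls between libraries over all cells (both CNTNAP5) became 1 under a limit of 2000 genes and 10% mitochondrial UMIs, and 0 with the makeup of the unsorted library. The 3 calls within classes became 1 with 10 CPM added, 5 with no filter on low genes, 5 with each cell weighted equally, 7 with every cut halved, 6 with every cut doubled and 1 with cells of several cuts given to their largest. They became 1 without cluster 11 and 2 without the GHRL-high cell in TPH1-rich cells, both chosen after seeing the data. The 20 calls between classes became 13 with cells of several cuts given to their largest and 13 with Leiden clusters. They were 22 to 24 when a library was left out, since fewer libraries then had to pass. Of called values, CNTNAP4 reversed with every cut halved, to log2 0.67 for INS-rich over SST-rich and -0.30 for SST-rich over TPH1-rich cells of the positive library, and with largest-cut classes, to 0.090 (positive) and 0.11 (unsorted) for INS-rich over SST-rich cells. The cause was not tested. Depth limits NRXN2 in GCG- and SST-rich cells, where sums held 1 to 10 UMIs, and all values of the 30 SST-rich cells of the positive library.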

Other observations

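Cells above none of the 4 cuts (74, 78 and 77 cells of the positive, negative and unsorted libraries) had more CNTNAP4 than any of the 4 classes, at 70.5, 79.1 and 73.0 CPM. NRXN3 had 660, 617 and 506 CPM in them, above INS-, SST- and TPH1-rich and below GCG-rich cells of the same library. GHRL had 62.1, 0.542 and 459 CPM in them, and IAPP 1011, 1217 and 884 CPM. Their median depths of 26538, 21124 and 22810 UMIs were below those of the INS-rich cells.

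Cluster 9, whose 440 cells had a median of 105859 CPM of INS, had LSAMP at 191 CPM, CNTNAP2 at 57.3 CPM and NRXN3 at 13.6 CPM, while NRXN2 stood at 16.8 CPM. In cluster 0, also of high INS with 694 cells, these genes stood at 977, 439, 77.5 and 20.5 CPM.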
